A study of Schizosaccharomyces pombe with 8 samples.

Results

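The loss of Mot2 was examined in fission yeast (Schizosaccharomyces pombe) cells that also lack the long non-coding RNA mamRNA, by comparing RNA-seq libraries of the mot2∆ mamRNA∆ double mutant with those of the mamRNA∆ single mutant over all sense features. The comparison rests on 2 libraries of each genotype, 4 of the 8 in the series. The wt and mot2∆ libraries, also 2 each, are given beside them because they hold the same deletion in cells that keep mamRNA. Of the 6338 sense features listed (genes and non-coding RNAs), 5988 had enough reads to be tested. All strains were homothallic (h90), that is, able to switch mating type and to mate within a culture, and were grown in the minimal medium EMM at 30 °C to an optical density of 0.6 in exponential phase. The mamRNA∆ strain carried mamRNA::natMX, the double mutant carried mamRNA::hygTK with mot2::kanMX, the mot2∆ strain carried mot2::natMX, and wt carried no deletion. The cassette that replaces mamRNA therefore differs between the genotypes compared, and its part in any difference cannot be told apart from that of mot2. The labels do not say whether the libraries of a genotype came from separate cultures or clones, so the p-values measure the spread between these libraries, which may be technical.

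Mot2 is the subunit of the Ccr4-Not complex that acts as an E3 ubiquitin ligase, and Ccr4-Not shortens the poly(A) tails of mRNAs. In growing cells the YTH-domain protein Mmi1 binds meiotic transcripts through repeats of the hexamer UNAAAC and sends them to the nuclear exosome for degradation. Mei2, the RNA-binding protein that starts meiosis, inhibits Mmi1, and Mot2 keeps Mei2 levels down in growing cells. mamRNA is transcribed beside the small nucleolar RNA gene snoU14 and holds Mmi1 and Mei2 together.

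The 8 libraries held 22381332 to 34667534 counts, and ribosomal RNA made up 0.134 to 2.28% of them after depletion. Levels are given as CPM (counts per 1000000 counts) after scaling between libraries, and 3 counts in a library, taken as the floor of detection, correspond to 0.0847 to 0.141 CPM. Between the replicates of a genotype, the median absolute difference of log2 CPM was 0.0639 in mamRNA∆ and 0.0559 in the double mutant. Reads of mot2 itself stood at 18.9 and 18.8 CPM in mamRNA∆ and at 2.72 and 2.77 CPM in mot2∆ mamRNA∆, a log2 fold change of -2.78 (SE 0.11), in the direction that the label gives. snoU14, the neighbour of mamRNA, stood at 58.9 and 43.7 CPM in wt, at 30.4 and 36.8 CPM in mamRNA∆ and at 61.4 and 65.1 CPM in mot2∆ mamRNA∆. Its difference between the last 2 genotypes was 0.91 on the log2 scale (SE 0.15), under the fold threshold, and 1.06 without mamRNA∆ replicate 2. mamRNA itself was not analysed here.

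Between mamRNA∆ and mot2∆ mamRNA∆, 598 sense features differed in level, the deleted mot2 among them. A feature was called when its adjusted p in edgeR was under 0.05 and its change was over 2-fold. By this rule 247 sense features rose, 4.12% of the 5988 tested, and 351 fell, 5.86%. With no fold threshold, 1785 (29.8%) were higher and 1833 (30.6%) lower, so many small differences exceeded the spread between replicates. Among the called features, 32 rose and 85 fell by over 4-fold. The features that fell had low levels more often: 166 of the 351 were under 10 CPM in mamRNA∆, against 58 of the 247 that rose in the double mutant. Of the 5073 protein-coding genes tested, 201 rose and 214 fell. Of 686 long non-coding RNAs, 40 rose and 113 fell, 16.5% of them, with a median log2 fold change of -0.25 against 0.01 over the protein-coding genes. Gene length moved with these counts. Protein-coding genes were split by length into 5 classes of equal size. In the shortest class (median 793 bases) 35 rose and 78 fell, and in the longest class (median 3574 bases) 44 rose and 25 fell. The medians of these classes also differed in mot2∆ against wt, at -0.22 and 0.18, and the part of length in the counts was not tested.

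**Figure D1:**
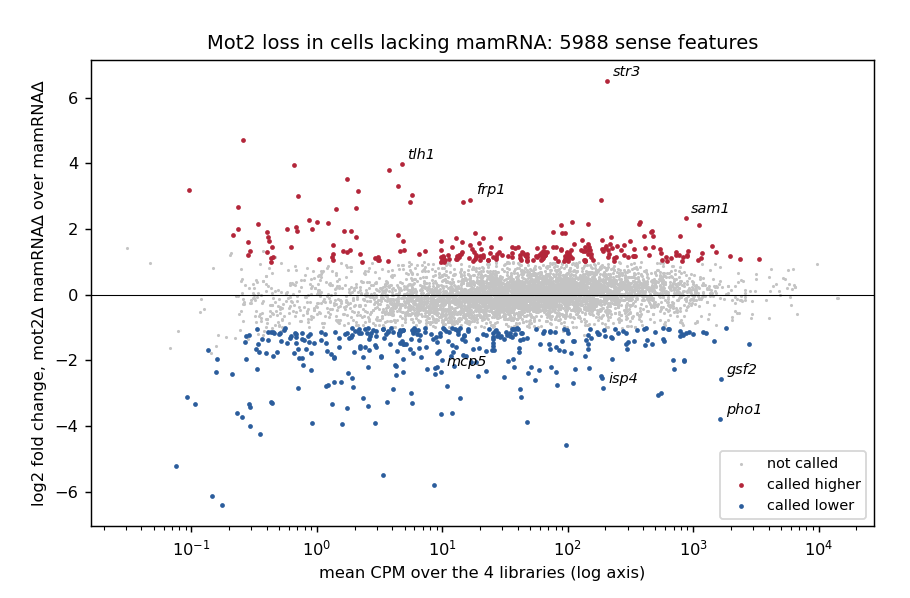
Each point is 1 of 5988 sense features, with its mean CPM over the 4 mamRNA∆ and mot2∆ mamRNA∆ libraries on the x axis (log scale) and its log2 fold change on the y axis. The 247 features called higher (red) and the 351 called lower (blue) lie beyond 1 and -1. str3 is the highest point, at 6.51, and pho1 and gsf2 are abundant RNAs far below 0.

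The largest increase was that of str3, which encodes a transporter for iron-loaded siderophores, the small molecules that cells use to collect ferric iron. str3 stood at 5.01 and 4.01 CPM in mamRNA∆ and at 411 and 405 CPM in mot2∆ mamRNA∆. The log2 fold change was 6.51 (SE 0.41, edgeR adjusted p = 9.9e-08). In wt and mot2∆ the same RNA stood at 4.09 and 5.28 CPM and at 66.3 and 185 CPM. The mot2∆ libraries were thus above wt and below the double mutant, and their own spread was wide. Of the 10 genes of reductive iron uptake, siderophore transport and synthesis and heme uptake, 7 rose (70.0%, against 4.12% of all sense features) and 0 fell, with a median log2 fold change of 1.96. frp1, which encodes the ferric-chelate reductase at the cell surface, went from 4.12 and 3.84 CPM to 29.6 and 29.5 CPM (2.89, SE 0.17). Its relative frp2, outside the list, went from 3.82 and 3.36 CPM to 25.4 and 25.9 CPM (2.84, SE 0.15). The multicopper oxidase gene fio1 went from 184 and 180 CPM to 635 and 615 CPM (1.78, SE 0.18). Its partner fip1, the iron permease, went from 102 and 99.2 CPM to 341 and 342 CPM (1.76, SE 0.22). The oxidase and permease form a single uptake complex, and their RNAs rose by nearly the same factor. The siderophore transporter str1 went from 388 and 434 CPM to 1854 and 1764 CPM (2.14, SE 0.10). abc3, which encodes a vacuolar ABC transporter needed when iron is scarce, went from 53.1 and 54.3 CPM to 244 and 229.99 CPM (2.14, SE 0.14). shu1, for heme uptake, had 2 and 3 counts in the mamRNA∆ libraries and 79 in both double mutant libraries together, a ratio of 16.4 (95% counting interval 6.74 to 51.9).

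The other 3 members were not called. str2, for a further siderophore transporter, stood at 1534 and 1471 CPM in mamRNA∆ and at 1541 and 1558 CPM in the double mutant. The ferrichrome synthetase gene sib1 stood at 460 and 471 CPM and at 460 and 447 CPM, and sib2, for the preceding step of ferrichrome synthesis, at 113 and 115 CPM and at 102 and 96.2 CPM (log2 fold change -0.20). Of the 8 regulators of iron genes, only php4 rose, from 39.5 and 39.4 CPM to 99.5 and 96.0 CPM (1.31, SE 0.09). Php4 is the subunit that turns the CCAAT-binding complex into a repressor of iron-using genes. fep1, the GATA-type repressor of the uptake genes, stood at 179 and 192 CPM in mamRNA∆ and at 141 and 132 CPM in the double mutant, a log2 fold change of -0.44 (SE 0.08) under the fold threshold. Among 18 genes of iron-using and iron-storing proteins, isu1 for iron-sulfur cluster assembly rose (1.48, SE 0.08) and the catalase gene ctt1 fell (-1.52, SE 0.12). With no fold threshold, 3 of the 18 were higher and 8 lower, with a median of -0.14. fet4, for a low-affinity iron and zinc transporter, went the other way from the high-affinity genes: it fell from 141 and 146 CPM to 21.5 and 21.5 CPM (-2.74, SE 0.11).

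**Figure D2:**
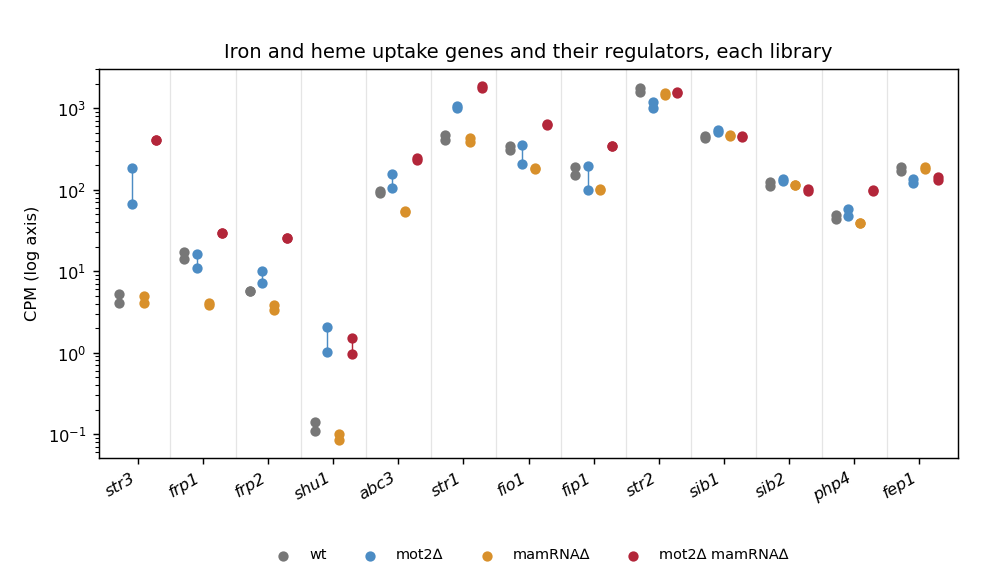
CPM (y axis, log scale) of 13 iron genes (x axis) in each of the 8 libraries, with the 2 replicates of a genotype joined by a line and libraries under 3 counts drawn at the value of 3 counts. The double mutant (red) is above mamRNA∆ (orange) in the first 8 genes and in php4, and beside it in str2 and sib1.

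Fep1 binds GATA elements, so the promoters of some of the iron uptake genes are shown, with GATAA and its reverse complement TTATC in capitals. They are the 250 bases before the annotated start in the RefSeq assembly ASM294v3. At least 1 such element was present in 7 of the 10 promoters of the list and in 5 of those of the 7 genes that rose, against 54.2% of the 5112 protein-coding promoters searched on both strands. The promoters of fio1 (whose window overlaps that of the divergent fip1), frp1 and shu1 hold 3, 2 and 3 matches. The 3 matches of fio1 are also those of fip1. abc3 holds 1, and str3, the gene that rose most, holds 0 in this window. str1, which also rose, holds 0, while str2 and sib2, which were not called, hold 2 each. The element thus did not separate the genes that rose from the others. The windows of abc3 and str3 overlap a neighbouring annotated gene.
fio1 promoter, chrI:4234822-4235071, plus strand: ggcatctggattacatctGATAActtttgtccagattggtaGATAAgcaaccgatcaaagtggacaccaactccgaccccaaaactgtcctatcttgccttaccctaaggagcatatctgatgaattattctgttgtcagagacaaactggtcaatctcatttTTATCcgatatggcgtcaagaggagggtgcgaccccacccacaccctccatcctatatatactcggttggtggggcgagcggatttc
frp1 promoter, chrII:162393-162642, minus strand: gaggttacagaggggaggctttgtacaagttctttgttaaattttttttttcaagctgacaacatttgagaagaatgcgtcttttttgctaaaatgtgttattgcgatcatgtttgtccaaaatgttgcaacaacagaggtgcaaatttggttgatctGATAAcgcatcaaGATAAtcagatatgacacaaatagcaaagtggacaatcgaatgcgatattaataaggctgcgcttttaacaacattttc
shu1 promoter, chrI:86279-86528, minus strand: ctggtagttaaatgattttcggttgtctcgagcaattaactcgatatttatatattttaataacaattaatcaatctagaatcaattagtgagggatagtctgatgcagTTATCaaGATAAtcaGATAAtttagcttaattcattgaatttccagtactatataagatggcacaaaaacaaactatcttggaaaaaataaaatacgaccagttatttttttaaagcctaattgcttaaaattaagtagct
abc3 promoter, chrII:122392-122641, plus strand: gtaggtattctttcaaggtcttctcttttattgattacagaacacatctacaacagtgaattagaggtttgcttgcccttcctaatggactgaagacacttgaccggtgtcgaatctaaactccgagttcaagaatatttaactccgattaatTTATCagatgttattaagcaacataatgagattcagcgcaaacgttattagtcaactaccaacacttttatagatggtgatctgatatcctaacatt
str3 promoter, chrI:90290-90539, minus strand: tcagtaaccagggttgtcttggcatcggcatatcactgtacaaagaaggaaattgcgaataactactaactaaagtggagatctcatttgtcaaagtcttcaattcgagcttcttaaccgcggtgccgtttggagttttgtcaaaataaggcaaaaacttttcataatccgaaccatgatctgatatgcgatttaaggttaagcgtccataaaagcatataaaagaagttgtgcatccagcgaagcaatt
These matches are a description of the windows, and binding was not measured.

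The iron uptake genes were among the features whose response to the loss of Mot2 differed with and without mamRNA. The interaction term, the log2 fold change without mamRNA minus that with mamRNA, was called above 0 for 271 of the 5988 sense features (4.53%) and below 0 for 387 (6.46%). On the same rule 273 sense features rose (4.56%) and 243 fell (4.06%) in mot2∆ against wt. The term was above 0 for frp1 (3.08), frp2 (2.22), fio1 (2.00), fip1 (1.98), str3 (1.78) and abc3 (1.67). frp1 in wt and mot2∆ stood at 17 and 14.3 CPM and at 11 and 16.4 CPM, which overlap, and fio1 at 344 and 306 CPM and at 204 and 355 CPM. For both genes the mamRNA∆ values were under the wt values, and the double mutant was above all other libraries. str1 rose in both settings, by 1.24 with mamRNA and 2.14 without it, and shu1 by a fitted 5.99 and 3.96, with interactions of 0.90 and -2.03 that were not called.

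Both settings share no library, so their calls can be set side by side. Of the 247 features that rose without mamRNA, 53 (21.5%) also rose with it, which is 19.4% of the 273. Of the 351 that fell, 117 (33.3%) also fell with it, 48.1% of the 243. In 11 features a rise without mamRNA went with a fall in its presence, and in 36 the reverse. The interaction was called with the sign of the change in 113 of the 247 (45.7%) and in 171 of the 351 (48.7%). Over all sense features it was called above 0 in 4.53% and below 0 in 6.46%. The interaction contains the change by which these features were picked, which favours a shared sign in advance. These shares are therefore a description.

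Genes for sulfur assimilation, methionine and one-carbon metabolism, a group assembled after their values were seen, made up another part of the increases. Of 16 tested, 9 rose (56.2%, against 4.12% of all sense features), 0 fell and 14 passed the p threshold upward, with a median of 1.15. In mot2∆ against wt 1 rose and 10 passed the p threshold upward, with a median of 0.32. sam1, for S-adenosylmethionine synthetase, the enzyme that makes the methyl donor of the cell, went from 286 and 294 CPM to 1425 and 1490.4 CPM (2.33, SE 0.11). In wt it stood at 906 and 739 CPM and in mot2∆ at 1499 and 1614 CPM. The mamRNA∆ libraries were therefore the lowest of the 8, and the double mutant lay between wt and mot2∆. met17, for homocysteine synthase, went from 200.1 and 185 CPM to 721 and 737 CPM (1.92, SE 0.10), with 591 and 497 CPM in wt. cho2, a methyltransferase of phospholipid synthesis that consumes S-adenosylmethionine, rose by 1.8 (SE 0.09). The sulfite reductase gene sir1 and the methylenetetrahydrofolate reductase gene met9 rose by 1.29 and 1.41. SPAC869.05c, annotated as a sulfate transporter, went from 38.4 and 49.2 CPM to 336 and 317 CPM (2.90, SE 0.11), and with mamRNA by 1.66. Over 49 genes of amino acid synthesis, 9 rose (18.4%) and 1 fell (2.04%), against 4.12% and 5.86% of all sense features. The median was 0.49, with 37 past the p threshold upward. This list shares members with the sulfur list, so a rise may be counted in both. The gene that fell was arg7, for argininosuccinate lyase, the last step of arginine synthesis. It went from 25.2 and 24.2 CPM to 2.81 and 2.77 CPM (-3.14, SE 0.15), while arg4 (1.13) and arg5 (1.04, 0.96 without mamRNA∆ replicate 2), for earlier steps of the same pathway, rose.

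Ribosome biogenesis genes, selected by the words of their RefSeq product names after values were seen, moved upward by a smaller factor. Of 83, 23 rose (27.7%, against 4.12% of all sense features), 0 fell and 66 passed the p threshold upward. The median was 0.71. In mot2∆ against wt 0 rose and 1 fell, with a median of -0.12, and the interaction was called above 0 for 33. ppp1, for the pescadillo homologue of large subunit assembly, went from 65.0 and 59.2 CPM to 196 and 201 CPM (1.67, SE 0.11). enp2, for an rRNA processing factor, went from 29.2 and 26.7 CPM to 65.8 and 67.5 CPM (1.25, SE 0.10), with 55.8 and 69.4 CPM in wt and 37.3 and 41.8 CPM in mot2∆. utp10, a component of the particle that processes pre-rRNA, went from 549 and 524 CPM to 1099.96 and 1111 CPM (1.04, SE 0.08). For enp2 the double mutant was thus level with wt, while utp10 had 583 and 549 CPM in wt, near mamRNA∆. The 141 cytosolic ribosomal protein genes had a median of 0.05, with 3 that rose, the paralogs rps2202 (1.91), rpl1602 (1.38) and rpl102 (1.09). Reads of such near-identical copies may be shared between them.

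Further large increases had other roles. nce103, for carbonic anhydrase, went from 137 and 126 CPM to 601 and 633 CPM (2.23, SE 0.08), and it overlaps mug45, which also rose (1.71). ecl1, for a small protein known to extend chronological lifespan, went from 39.2 and 38.6 CPM to 189 and 170 CPM (2.21, SE 0.10). mpd2, for a GYF domain protein, went from 134 and 135 CPM to 595 and 611 CPM (2.16, SE 0.08). mde3, for a kinase of meiosis, went from 33.6 and 31.9 CPM to 147 and 140.3 CPM (2.13, SE 0.07), and it overlaps sec31. The thiamine genes thi2 (1.27, SE 0.12) and thi9 (1.21, SE 0.09) were the called members of a list of 9, and nmt1, the thiamine-repressed gene of the same list, stood at 14981 and 13876 CPM and at 13246 and 13765 CPM. Of the 13 Tf2 retrotransposons, which are near-identical copies, 9 rose, with a median of 1.06 and members from 0.91 to 1.20. That count was 4 without mot2∆ mamRNA∆ replicate 1 and 5 without the scaling between libraries. The same copies were higher in mot2∆ against wt, at a median of 0.97, and no interaction was called.

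The Mmi1 targets were compared because Mot2 and mamRNA both act on Mmi1 through Mei2. Of 7 targets, 0 rose and 2 fell (28.6%, against 5.86% of all sense features), with a median of -0.14 (-0.33 without mamRNA∆ replicate 2). mcp5, for a factor that anchors dynein at the cell cortex in meiosis, went from 16.6 and 16.1 CPM to 3.54 and 2.91 CPM (-2.34, SE 0.12, edgeR adjusted p = 2.6e-08). ssm4, for a dynactin subunit that moves the nucleus in meiosis, went from 5.76 and 6.64 CPM to 2.93 and 2.97 CPM (-1.07, SE 0.15), or by -0.96 without mamRNA∆ replicate 2, which ends the call. mei4, the transcription factor of middle meiosis, stood at 6.09 and 6.36 CPM and at 4.42 and 3.50 CPM (-0.65, SE 0.14). rec8, the meiotic cohesin subunit, stood at 2.997 and 2.57 CPM and at 3.57 and 2.71 CPM. spo5, an RNA-binding protein gene of meiosis, stood at 2.83 and 2.18 CPM and at 2.42 and 2.08 CPM, and the lncRNA sme2 at 8.14 and 8.56 CPM and at 8.17 and 8.45 CPM. For rec8, spo5 and sme2 the genotypes overlapped. crs1, a meiotic cyclin gene, stood at 3.72 and 3.45 CPM and at 6.50 and 5.91 CPM (0.80, SE 0.17), under the fold threshold. mei4, spo5, crs1 and sme2 overlap annotated neighbours, so that reads of the neighbour may be included.

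Loss of Mot2 in cells with mamRNA gave another picture of the same 7 RNAs. 5 of them rose in mot2∆ against wt, spo5 from 2.07 and 2.06 CPM to 77.0 and 69.6 CPM, and rec8 from 4.18 and 4.31 CPM to 13.5 and 12.9 CPM. mcp5 and ssm4, which fell without mamRNA, were not among the 5, and their interactions contain that fall. The interaction was called below 0 for all 7, against 6.46% of all sense features. It was -5.29 for spo5, -3.11 for mcp5, -1.85 for crs1, -1.75 for mei4, -1.45 for rec8, -1.24 for ssm4 and -1.04 for sme2. mei2 stood at 548 and 409 CPM in wt, 1091 and 909 CPM in mot2∆, 352 and 361 CPM in mamRNA∆ and 458 and 409 CPM in mot2∆ mamRNA∆. It rose by 1.06 with mamRNA and differed by 0.28 (SE 0.13, edgeR adjusted p = 0.077) without it. mmi1 was 0.38 higher in the double mutant than in mamRNA∆ (SE 0.06). Of 11 regulators of meiosis, 0 were called, and the change furthest from 0 was that of erh1, for the partner protein of Mmi1 (-0.91, SE 0.15; -1.02 and called without mot2∆ mamRNA∆ replicate 2). ste11, for the transcription factor that starts sexual differentiation, stood at 275 and 350 CPM and at 202 and 175 CPM (-0.73, SE 0.16). None of the 8 Ccr4-Not genes was called in either setting. not1, for the scaffold of the complex, was the highest, at 489 and 492 CPM and at 889 and 895 CPM (0.86, SE 0.08).

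The 2 targets that fell are shown by a stretch of 120 coding bases each, to display the Mmi1 motif in the RNA. TNAAAC, the DNA form of the hexamer, is in capitals and was searched on the coding strand. mcp5 holds 18 matches in 2907 coding bases and ssm4 13 in 2013, that is 6.19 and 6.46 per kb, against a median of 1.52 per kb over 5113 protein-coding genes. mei4 and rec8, which were not called, hold 6.44 and 6.52 per kb, and spo5 3.52. crs1, whose RNA was higher in the double mutant (0.80), holds 7.75 per kb, more than either target that fell. Each stretch below holds 4 matches.
mcp5 coding stretch, chrII:899593-899712, plus strand: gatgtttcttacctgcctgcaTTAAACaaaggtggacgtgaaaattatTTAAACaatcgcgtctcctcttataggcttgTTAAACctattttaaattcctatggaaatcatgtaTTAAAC
ssm4 coding stretch, chrI:4535156-4535275, minus strand: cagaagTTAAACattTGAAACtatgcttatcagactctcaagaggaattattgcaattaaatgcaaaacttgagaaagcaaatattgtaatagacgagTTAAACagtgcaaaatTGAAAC

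Flocculins, the cell wall adhesins that make cells stick together, were mostly lower. Of 11 tested, 6 fell (54.5%, against 5.86% of all sense features) and 0 rose, with a median of -1.37. gsf2, the main flocculin of fission yeast, went from 2862 and 2846 CPM to 473 and 482 CPM (-2.58, SE 0.10, edgeR adjusted p = 1.7e-09). In wt it stood at 286 and 254 CPM and in mot2∆ at 5258 and 5028 CPM. Both single mutants were thus above wt, and the double mutant was nearer to wt than either. pfl4 went from 207 and 199 CPM to 76.4 and 80.5 CPM (-1.37, SE 0.07), with 78.7 and 76.3 CPM in wt and 529 and 540 CPM in mot2∆. pfl6 stood at 5.43 and 5.51 CPM in mamRNA∆, at 0.272 and 0.462 CPM in the double mutant and at 67.7 and 84.3 CPM in mot2∆. pfl9 and SPBC1348.08c had the same order of genotypes, and all 3 were under 1 CPM in wt. SPBC1348.08c had nearly the levels of pfl6, at 4.78 and 4.63 CPM in mamRNA∆ and 64.9 and 88.4 CPM in mot2∆. These genes may hold some of the same reads and may not count as separate falls, which was not tested. pfl7 fell with and without mamRNA, by -2.97 and -2.78, to under 1 CPM. pfl3 (-0.54), map4 (-0.48) and mam3 (-0.40) passed the p threshold alone, pfl5 stood at 67.4 and 61.7 CPM and at 70.3 and 69.5 CPM, and pfl2 was higher by 0.93 (SE 0.12; 1.03 without mamRNA∆ replicate 2). With at least 10 counts required in every library, 2 flocculins fell and the median was -0.51. The interaction was called below 0 in 9 of the 11 and above 0 in pfl2 (1.53). The 12 regulators of flocculation did not share a direction: 2 fell and 1 rose, 8 were above 0, and the median was 0.07. mbx2, for the MADS-box activator of gsf2, fell from 130.2 and 129 CPM to 49.1 and 49.3 CPM (-1.40, SE 0.06). cbf12, for a CSL-family factor that activates adhesion, fell by -1.19 (SE 0.09). mbx2 was at 64.1 and 63.5 CPM in wt and 128 and 125 CPM in mot2∆, so that both single mutants were above wt, as for gsf2, and the double mutant was below it.

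**Figure D3:**
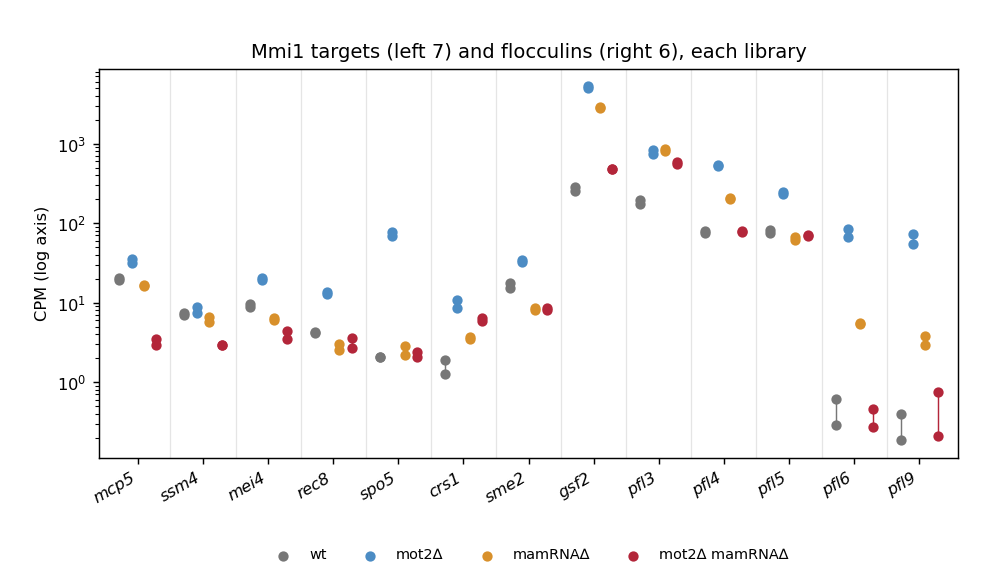
CPM (y axis, log scale) of the 7 Mmi1 targets and 6 flocculins (x axis) in each of the 8 libraries, with the replicates of a genotype joined by a line. mot2∆ (blue) lies above the double mutant (red) in every gene shown, and the double mutant lies below mamRNA∆ (orange) in mcp5, ssm4, mei4, gsf2, pfl3, pfl4, pfl6 and pfl9.

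The phosphate gene pho1, for the secreted acid phosphatase, had 1 of the 12 largest falls among features of at least 10 CPM. It went from 3118 and 3004 CPM to 210.2 and 231 CPM (-3.79, SE 0.12), while wt had 4252 and 3503 CPM and mot2∆ 4546 and 4796 CPM. Its interaction was -4.06. pho84, for the inorganic phosphate transporter, fell from 1111 and 1085 CPM to 424 and 501 CPM (-1.25, SE 0.12), and also stood lower in mot2∆ than in wt. tgp1, for the glycerophosphodiester transporter that is induced with pho1 and pho84 in phosphate starvation, was higher, at 13.3 and 14.97 CPM and at 22.02 and 24.5 CPM (0.71, SE 0.09). pho7, for the activator of all 3 genes, was also higher (0.80, SE 0.08). The 7 members of this list did not share a direction: 2 fell, and 3 of the other 5 were above 0.

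Genes of the stress response were mostly lower, while those of nitrogen starvation were split. Of 34 stress genes, 10 fell (29.4%, against 5.86% of all sense features) and 0 rose. The p threshold was passed downward by 24, and the median was -0.72. ssa1, for an Hsp70 chaperone, went from 2093 and 2143 CPM to 865 and 739 CPM (-1.40, SE 0.10). hsp104, for the disaggregase, went from 1147 and 1118 CPM to 525 and 469 CPM (-1.19, SE 0.09), and hsp16 and hsp9 fell by -1.39 and -1.13. For ssa1 the wt libraries stood at 1078 and 958 CPM, so mamRNA∆ was above wt and the double mutant below it. gpx1 and rds1, both at -1.04, lost the call without replicate 2 of either genotype. Of 14 genes of nitrogen starvation, 5 passed the p threshold upward and 5 downward, with a median of -0.06. Of these isp4, isp5 and isp7 fell by over 2-fold, the last by -1.08, or -0.98 without mamRNA∆ replicate 2, which ends the call. isp4, for an oligopeptide transporter, went from 303 and 364 CPM to 42.9 and 50.2 CPM (-2.84, SE 0.13), with 24.1 and 24.6 CPM in wt. Of 19 permeases, 7 fell (36.8%) and 1 rose (5.26%), against 5.86% and 4.12% of all sense features. isp4 is in this list as well as in that of nitrogen starvation. The permease gene that rose was cat1, for arginine and lysine, at 1.02 and, without mamRNA∆ replicate 1, at 0.99, under the fold threshold. dal52, for a dipeptide transporter, went from 53.5 and 52.2 CPM to 9.11 and 9.38 CPM (-2.52, SE 0.08). SPBC36.02c, of the spermidine transporter family, went from 70.8 and 82.5 CPM to 8.89 and 8.78 CPM (-3.12, SE 0.11). Of the 7 markers of growth and stress state fixed for the cultures, 6 fell. The markers include hsp9, hsp16, gpx1, isp4 and isp5 of the lists above, so they are not a separate set of genes. Their summed level was 3946 and 4213 CPM in mamRNA∆ and 1885 and 1672 CPM in the double mutant. The part of culture state in these falls was not tested. Mating markers summed to 713 and 769 CPM against 817 and 791 CPM, with 3 of 15 that rose (mfm1, mam2 and ste6, for a pheromone precursor, a pheromone receptor and a Ras activator). Of a wider list of 24 mating genes 3 rose, and 7 without mamRNA∆ replicate 1. Spore markers summed to 280 and 285 CPM against 237 and 244 CPM. No marker of these lists was at 0 in all 4 libraries.

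**Figure D4:**
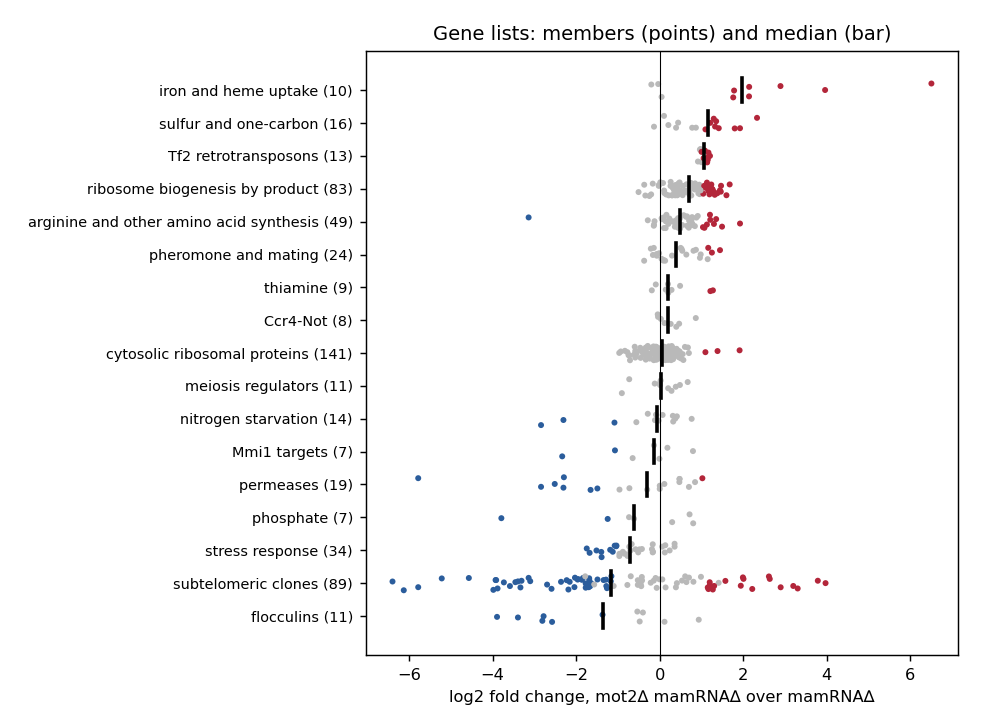
Log2 fold change (x axis) of each member of 17 gene lists (y axis, with the number tested), red when called higher, blue when called lower, grey otherwise. Black bars are list medians, from 1.96 for iron and heme uptake to -1.37 for flocculins. The scatter within a row in the vertical direction has no meaning.

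The position of genes on the chromosomes, which played no part in the comparison, divided the calls further. On chromosomes I and II, 66 of 126 features within 100 kb of an end fell (52.4%) and 27 rose (21.4%), with a median of -1.27. At 100 to 200 kb, 33 of 192 fell (17.2%), and further in, 202 of 4474 (4.51%). Chromosome III differed: of 93 features within 100 kb of an end, 14 fell (15.1%) and 9 rose (9.68%), with a median of 0.04. In mot2∆ against wt, 34 of the 126 features near the ends of chromosomes I and II rose and 48 fell. Some features near these ends had the same annotated product and nearly the same levels. An example is SPAC977.09c (14.1 and 14.8 CPM in mamRNA∆) and SPBC1348.10c (14.2 and 13.9 CPM), both annotated as a phospholipase. Reads of such pairs may be shared, so a single change may be counted more than 1 time. Subtelomeric clones named in the locus tags showed the same division: of 89 tested, 44 fell and 18 rose, with a median of -1.17 (-1.16 with features at 0 set to their bound). With at least 10 counts required in every library, 27 of them fell, with a median of -0.48. tlh1 and tlh2, the near-identical helicase genes next to the telomeres, were among those that rose. tlh1 went from 0.725 and 0.424 CPM to 8.95 and 8.85 CPM (3.97, SE 0.22), where wt had 10.2 and 13.3 CPM and mot2∆ 14.5 and 14.8 CPM. SPAC977.15, for a hydrolase of the dienelactone family, went from 190.3 and 182 CPM to 8.86 and 6.70 CPM (-4.57, SE 0.23), where wt had 15.8 and 16.9 CPM. In both the mamRNA∆ libraries stood apart from the other 3 genotypes. SPBPB2B2.01, an amino acid permease gene, had the largest fall among features of at least 10 CPM, from 15.7 and 17.8 CPM to 0.303 and 0.297 CPM (-5.79, SE 0.21), and SPBPB2B2.06c, for a phosphatase, went from 99.2 and 79.4 CPM to 5.84 and 6.24 CPM (-3.89, SE 0.16). Both also fell in mot2∆ against wt (-4.40 and -4.34). SPAC212.02 and SPBCPT2R1.02 had 0 counts in both double mutant libraries and were at least 2.28-fold and 3.33-fold lower against a floor of 3 counts per library.

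Runs of neighbours moved together. With a rule chosen after the values were seen (windows of 10 consecutive tested features with at least 6 called in 1 direction, joined and trimmed), 10 such runs were found, and their direction is a description. The run from tms1 to SPNCRNA.1342 on chromosome II spanned 50.2 kb and lay 291 kb from the chromosome end. Of its 24 tested features 19 fell and 0 rose, with a median of -1.67 against -0.63 in mot2∆ against wt, and the interaction was called below 0 for 14. It holds arg7, dal52 and fet4 together with SPBC1773.12 (17.03 and 18.9 CPM to 1.36 and 1.55 CPM), annotated as a transcription factor, and SPBC1773.13 (21.5 and 22.7 CPM to 1.78 and 1.85 CPM), an aromatic aminotransferase. These last 2 genes overlap each other. car1, for the arginase of arginine breakdown, went from 33.1 and 35.5 CPM to 10.1 and 10.7 CPM, so that genes for making and for degrading arginine fell side by side. Within the run, nrs1, for an asparaginyl-tRNA synthetase, stood at 268 and 257 CPM and at 318 and 327 CPM, and sme2 did not differ beyond the spread between replicates. A run at the left end of chromosome I held ght3, shu1, str3, SPNCRNA.604, SPNCRNA.139 and SPAC1F8.04c, all 6 of which rose with and without mamRNA. SPNCRNA.139 went from 1.19 and 1.30 CPM to 10.4 and 10.3 CPM (3.05, SE 0.25). ght3, a gluconate transporter gene, was at 1.07 and lost the call without mot2∆ mamRNA∆ replicate 1 (0.93). pho84 and pho1 lie in a run of 36 features at the right end of chromosome II, of which 26 fell, with the galactose genes gal1, gal7 and gal10 (-1.41, -1.86 and -1.86) and SPBPB2B2.01. The run on chromosome III begins with copies of ribosomal RNA, which was depleted before sequencing and whose share differed between replicates. The use of strand in the counting is not given in the sources used here, so reads of overlapping neighbours may have been shared.

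**Figure D5:**
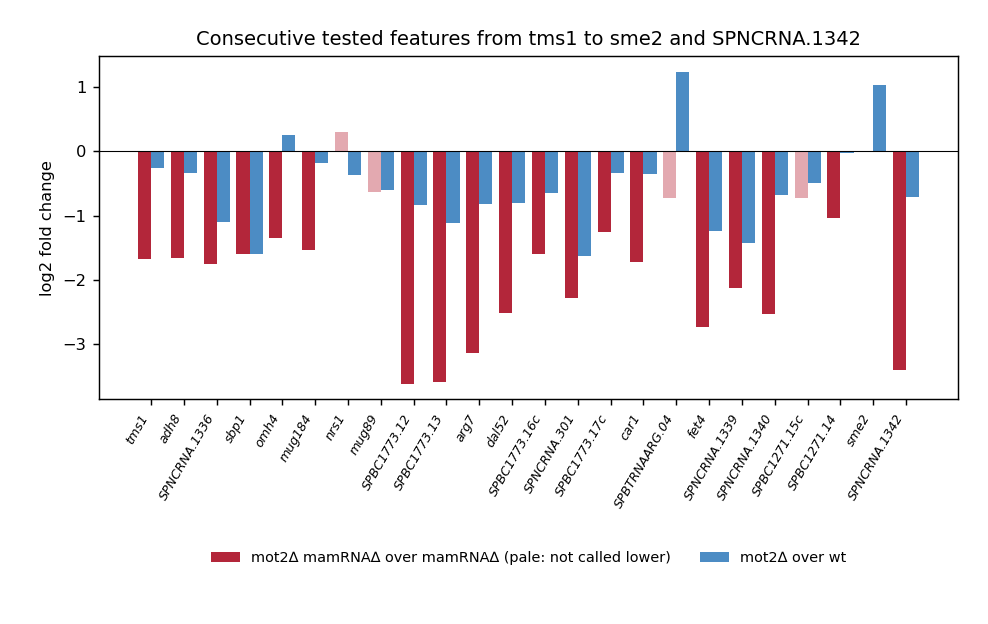
Log2 fold change (y axis) of the 24 consecutive tested features (x axis, in chromosome order) of the run from tms1 to SPNCRNA.1342, in mot2∆ mamRNA∆ against mamRNA∆ (red, pale where not called lower) and in mot2∆ against wt (blue). 19 red bars pass -1, the deepest at SPBC1773.12 and SPBC1773.13, while nrs1 and sme2 within the run do not fall.

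Non-coding RNAs accounted for many of the falls. Of 708 numbered non-coding RNAs (SPNCRNA), 40 rose and 112 fell (15.8%), with a median of -0.25. With at least 10 counts in every library, 21 rose. Of 43 prl RNAs, 9 fell and 2 rose, 1 of them without mot2∆ mamRNA∆ replicate 1. SPNCRNA.679 went from 75.2 and 72.4 CPM to 10.6 and 9.67 CPM (-2.86, SE 0.09), where wt had 12.9 and 14.5 CPM. SPNCRNA.865 went from 1052 and 904 CPM to 119 and 126 CPM (-3, SE 0.12), and it overlaps SPAPB24D3.07c (-3.04), with nearly the same counts, so both may hold the same reads. SPNCRNA.1122 was at 1 count over both mamRNA∆ libraries and at 32 in the double mutant, a ratio of 33.2 (95% counting interval 5.55 to 1353). Of 105 mug genes, named for upregulation in meiosis, 2 rose (1.90%) and 5 fell (4.76%), against 4.12% and 5.86% of all sense features, and of 23 meu genes 4 rose (17.4%) and 1 fell (4.35%). meu3 and meu19, non-coding RNAs, rose in the double mutant by 1.63 and 1.5 and in mot2∆ against wt by 6.24 and 5.43. meu10, for a spore wall protein, fell by -1.26 (SE 0.07) without mamRNA and rose by 3.49 with it.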

How the data were processed

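Total RNA of fission yeast (8 libraries, 2 each of wt, mot2∆, mamRNA∆ and mot2∆ mamRNA∆) was depleted of ribosomal RNA and sequenced in pairs of 75 bases. The authors deposited 1 table of raw read counts per feature for each library. Per the labels and the study's methods, reads were demultiplexed with bcl2fastq 2.18.12, trimmed with Cutadapt 1.15, aligned with Bowtie2 and counted per feature. The genome build, annotation and use of strand are not given in the sources used here. Each table lists 6973 features, 635 of them antisense, and 53 had 0 counts in every library.

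The counts were analysed as deposited with edgeR 4.0.16 (limma 3.58.1, R 4.3.3). Features were kept with the default expression filter (minimum count 10, minimum total 15), which left 6620, of which 5988 are sense. Libraries were scaled by TMM, and a quasi-likelihood model with 1 coefficient per genotype was fitted to all 8 libraries, with no block. Contrasts were mot2∆ mamRNA∆ against mamRNA∆, mot2∆ against wt, and their difference (the interaction). P-values are two-sided and were adjusted by Benjamini-Hochberg over all 6620 features. The standard error is the absolute log2 fold change divided by the square root of F. Counting intervals are exact binomial intervals on summed counts and cover counting error only.

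Named features are the 12 largest increases and decreases among called sense features of at least 10 CPM in both libraries of the higher genotype with no overlap of genotypes, the 3 largest each way with no minimum, all members of the lists of Mmi1 targets, meiosis regulators, Ccr4-Not, iron uptake, iron regulators, flocculins, flocculation regulators, phosphate and thiamine genes, and called members of other lists. fet4, car1 and nrs1 lie outside this rule and were named after their values were seen, as were the lists of sulfur, ribosome biogenesis and galactose genes and the rule for runs of neighbours. 1 member of the lists is not reported here. The members and lists were chosen with earlier results of these data known, so lists are described by counts and medians. Features were matched by name to RefSeq (assembly ASM294v3), which gave 98.4% of the tested sense features a product and an order along the chromosomes. That assembly may not be the one used for counting, and coordinates are those of RefSeq. Deviations of samples with the same replicate number had correlations from -0.156 (mamRNA∆ and mot2∆ mamRNA∆) to 0.292 (mot2∆ and mot2∆ mamRNA∆). Alternatives were other scalings, filters, tools (DESeq2 1.42.0), sample sets and thresholds, a replicate block, and leaving out each library.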

Additional observations from a re-analysis of the deposited data

Results flagged for a closer look

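The following named features were singled out because the effect of Mot2 loss differed between cells without and with mamRNA by a direct test, the interaction term of the edgeR model (called at adjusted p under 0.05 and over 2-fold). Values are the log2 fold change without mamRNA minus that with mamRNA. For features picked as the largest increases or falls without mamRNA, the term contains that change. Its sign is favoured in advance there, so those values are a description.

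Among iron genes the term was above 0 for str3 (1.78), frp1 (3.08), frp2 (2.22), fio1 (2.00), fip1 (1.98), abc3 (1.67), the repressor subunit gene php4 (1.10) and the glutaredoxin gene grx4 (1.35). It was also above 0 for the S-adenosylmethionine synthetase gene sam1 (1.41), the sulfate transporter gene SPAC869.05c (1.24), the lifespan gene ecl1 (1.80), the meiotic kinase gene mde3 (1.06), the thiamine transporter gene thi9 (1.30), the phosphodiester transporter gene tgp1 (1.30), the flocculin gene pfl2 (1.53), the subtelomeric helicase gene tlh1 (3.67) and SPNCRNA.1122 (4.45), whose counts are near the floor.

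Among meiotic RNAs it was below 0 for spo5 (-5.29), mcp5 (-3.11), crs1 (-1.85), mei4 (-1.75), rec8 (-1.45), ssm4 (-1.24), sme2 (-1.04), its longer form sme2_long (-1.31), the Pat1 inhibitor gene mei3 (-2.39), the transcription factor gene rep1 (-1.19) and ste11 (-1.19). Among adhesins it was below 0 for SPBC1348.08c (-11.55), pfl6 (-11.35), pfl9 (-10.50), gsf2 (-6.83), pfl4 (-4.16), map4 (-3.18), pfl3 (-2.64), mam3 (-2.47) and pfl5 (-1.49), and among their regulators for mbx2 (-2.38), cbf12 (-1.41) and the kinase gene lkh1 (-1.16). In SPBC1348.08c, pfl6, pfl9, gsf2 and pfl4 the RNA fell without mamRNA and rose with it.

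Among the largest falls it was below 0 for isp4 (-4.77), SPAC977.15 (-4.25), pho1 (-4.06), SPAPB24D3.07c (-3.94), SPNCRNA.865 (-3.87), SPNCRNA.679 (-3.38), SPBC1773.12 (-2.79), SPBC1773.13 (-2.48), arg7 (-2.32), SPBC36.02c (-2.23) and SPBPB2B2.01 (-1.39).

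Antisense features lie outside the comparisons of the report. Of 632 tested, 28 were higher and 27 lower in mot2∆ mamRNA∆ than in mamRNA∆, with a median log2 fold change of -0.06.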

How the results depend on the processing

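With no fold threshold, 1785 sense features were higher and 1833 lower in mot2∆ mamRNA∆ than in mamRNA∆. An interaction above and below 0 was called for 1473 and 1378, and 1712 and 1830 were higher and lower in mot2∆ against wt. Called list memberships were 937 in place of 317, where a feature held by several lists is not counted again. Lists added after values were seen are left out of the memberships. Under the other alternatives these counts stayed within 1.5 times. Leaving out 1 library gave 248 to 273 higher, 314 to 352 lower, interactions of 245 to 304 above and 360 to 427 below 0, in mot2∆ against wt 262 to 299 higher and 199 to 240 lower, and 297 to 316 list memberships. An arm left with 1 library was assumed to vary like the others. Scaling by total counts moved the median of all features from -0.02 to -0.11, gave 212 higher and 390 lower, and turned 271 and 387 interactions into 203 and 469. DESeq2 called 244 higher and 320 lower. With the replicate block, 247 were higher and 355 lower. Replicate numbers of the compared genotypes were anticorrelated (-0.156), and a block with the mamRNA∆ numbers crossed, added after seeing the data, gave 249 higher and 354 lower. Of 359 called named features, 274 kept the call in every one of 14 alternatives in which they had a value (all but the removal of the fold threshold), and 0 changed direction. A fit of only the genotypes compared gives no interaction, which needs all 8 libraries. Features near the floor of 3 counts limit the lists of subtelomeric and non-coding RNAs. Fold changes of features at 0 depend on the prior count.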

Other observations

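The 46 mitochondrial ribosomal protein genes had 0 calls and a median log2 fold change of -0.11, and the 24 genes of sterol synthesis had 0 calls and a median of 0.30, with 15 past the p threshold upward. Of 16 factors of the RNA elimination pathway, 0 were called and 8 passed the p threshold upward, with a median of 0.18 (0.095 with scaling by total counts). Of 27 genes of meiotic chromosomes, rec25 was called higher (1.04, and 0.96 with scaling by total counts, which ends the call) and moa1 lower (-1.96). Among small nucleolar RNAs, snR33 went from 7.77 and 7.85 CPM to 28.4 and 28.7 CPM. prl32 differed between the mamRNA∆ replicates, at 99.2 and 279 CPM, against 40.1 and 38.1 CPM in the double mutant. Of 15 ribosomal RNA features tested, 7 were lower and 1 higher. Ribosomal RNA was 0.633 and 0.423% of the counts in mamRNA∆ and 0.1645 and 0.134% in the double mutant. It had been depleted before sequencing, and its share also differed between replicates, at 2.28 and 0.723% in wt.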
